A study of Mus musculus with 15 samples.

Results

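The regions described here lie at the locus of *Malat1* and *Neat1*, neighbouring genes for long nuclear RNAs on mouse chromosome 19. They were chosen by position alone, as every listed region that overlaps a window drawn around both genes in the mm39 build; the first of them starts at 5846197 and the last ends at 5892931. The series has a table of regions for the *Smarcd1* knockdown comparison (the KD table) and another for the *Smarcd1* overexpression comparison (the OE table), and both tables carry counts for the same 15 libraries. The window held 11 of 44598 regions in the KD table, of which 8 lay in *Malat1*, 1 in *Neat1* and 2 between the genes. It held 13 of 38036 in the OE table, with 7 in *Malat1* and 6 in *Neat1*. A region was given to a gene when its midpoint fell in an approximate interval set for that gene, because no annotation of mm39 was used here.

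ATAC-seq uses a transposase to insert sequencing adapters into open chromatin, so that the count of a region is read as the accessibility of its DNA. It was applied to 6DT1, a mouse mammary cancer cell line grown in monolayer without treatment. The groups of 3 libraries each were an empty vector line (EV), a *Smarcd1* overexpression line (OE), a scrambled hairpin control (Scr) and the *Smarcd1* hairpin knockdown lines KD4 and KD6. According to the methods, overexpression cells were kept under blasticidin and knockdown cells under puromycin; the drug of each control is not named. All 5 were made by lentiviral transduction of 6DT1, and the sources used here do not say that any was cloned. The labels call EV and Scr wildtype. According to the labels, each biological replicate was seeded from another passage on a following day, but that text describes RNA extraction, so it is uncertain whether it holds for these libraries. Without separate cultures, a p-value would measure only the spread between libraries, which may be technical. Total counts ranged from 16176518 to 23703753 per library in the KD table and from 22668622 to 31225956 in the OE table. The files do not measure *Smarcd1* RNA or protein, and the knockdown and overexpression were not checked here.

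*Malat1* RNA is one of the most abundant long noncoding RNAs of mammalian cells. It is retained in the nucleus, where it gathers at nuclear speckles, the bodies rich in splicing factors, and it is cut at its 3′ end to release a small RNA that resembles a tRNA. *Neat1* RNA builds the paraspeckle: a short and a long form start at the same promoter, and the long form is the scaffold on which proteins such as NONO and SFPQ assemble. SMARCD1 is a subunit of BAF, the SWI/SNF complex that moves nucleosomes and opens chromatin.

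*Malat1* and *Neat1* are both read from the minus strand, so their 5′ ends lie at the higher coordinates. The reference sequence of the *Malat1* start is shown here because the regions with the highest counts of the locus run through this gene. It comes from RefSeq in the GRCm38.p6 build, at chr19:5802623-5802922 on the minus strand, and covers 250 bases before to 50 after the annotated start. Its place among the mm39 regions was not determined. The table of promoters matched 1 of the 2 genes by symbol. The capitals mark each match to TGACG on either strand, the core of the cyclic AMP response element, and a match on the other strand reads CGTCA.

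Malat1 promoter: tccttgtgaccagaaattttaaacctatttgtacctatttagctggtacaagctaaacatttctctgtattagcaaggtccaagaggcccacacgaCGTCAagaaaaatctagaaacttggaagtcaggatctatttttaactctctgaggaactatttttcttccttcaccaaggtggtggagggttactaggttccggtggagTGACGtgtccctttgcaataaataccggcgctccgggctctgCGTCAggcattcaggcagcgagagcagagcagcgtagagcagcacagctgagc

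The window had a GC content of 47% and held 3 matches, which started 154, 45 and 3 bases before the annotated start. At least 1 such match occurred in 20.8% of the 32851 RefSeq promoter windows, so the motif is common. The full element TGACGTCA, the CCAAT box (CCAAT), the GC box (GGGCGG), the TATA box (TATAAA), the E box (CACGTG) and the AP-1 site (TGANTCA) were each searched on both strands and had 0 matches in this window. They occurred in 1.79%, 37.4%, 35.7%, 13.6%, 7.15% and 7.81% of all windows.

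*Malat1* had some of the highest counts per length of the nuclear genome, and *Neat1* did not. Because the labels describe RNA extraction, it is uncertain whether every read counted came from accessible DNA, and this was not tested. Counts were scaled to CPM (counts per 1000000 counts of the library) with TMM factors, which correct for differences in composition between libraries, and were divided by region length where regions or genes are compared with each other. The 8 *Malat1* regions of the KD table had levels of 1162 to 2453 CPM per kb over the 15 libraries, against a median of 18.2 for all regions. They ranked between 78 and 238 of 44586 nuclear regions by level per length. Over the 15 libraries the 7 *Malat1* regions of the OE table had 778 to 1843 CPM per kb, against a median of 18.5, and ranked between 105 and 358 of 38024. None of the locus was among the 20 regions with the largest totals of either table (0 regions in each), while 6 and 5 of those were mitochondrial. *Malat1* alone took between 0.379% and 0.791% of all counts of a library in the KD table, and between 0.357% and 0.671% in the OE table.

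**Figure D1:**
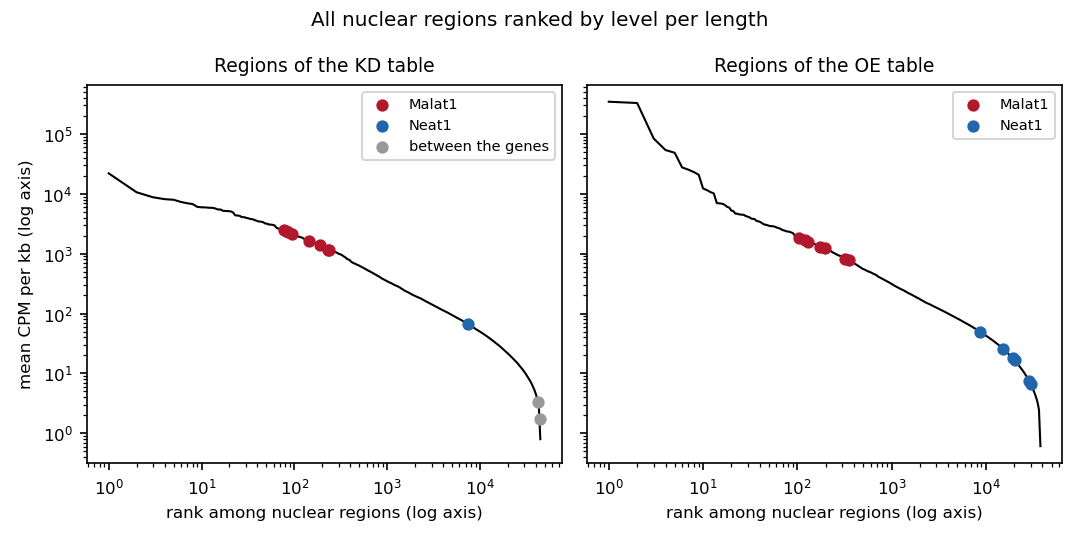
Mean level over 15 libraries in CPM per kb against rank among all nuclear regions, both on log axes, for the KD table (left) and the OE table (right). The black line is the whole table and the points are the regions of the locus. The *Malat1* points lie at ranks 78 to 238 (left) and 105 to 358 (right), the *Neat1* points lie far to the right of them, and the regions between the genes stand near the end of the list.

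Regions were listed along *Malat1* from its 5′ side to its 3′ side. The listed regions covered 2980 bases in the KD table, equal to 42.7% of the *Malat1* length that RefSeq gives in GRCm38.p6, and 3905 bases (55.9%) in the OE table. The region with the highest level per length was chr19:5851120-5851474, at 2453 CPM per kb. The region at the 3′ side, chr19:5846198-5846854, carried the most counts, at 1535 CPM over its 657 bases, and the region nearest the 5′ end, chr19:5852266-5852582, reached 761 CPM over 317 bases. High levels were thus listed on both sides of the gene, not only in the region nearest its start.

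*Neat1* carried far fewer counts. The KD table listed 1 region for it, chr19:5892458-5892709, at 16.6 CPM or 65.8 CPM per kb, which covered 1.21% of the RefSeq gene length. The OE table listed 6 regions that covered 6.38%. Of these, chr19:5892458-5892931 nearest the 5′ end was the highest, at 23.5 CPM or 49.5 CPM per kb. The other 5, farther from the 5′ end, lay between 1.09 and 4.83 CPM and between 6.58 and 25.4 CPM per kb. Beyond the highest *Neat1* region the next listed region began at 5901275 in the KD table and at 5901350 in the OE table. Summed over its listed bases, *Malat1* had 1907 CPM per kb and *Neat1* 65.8 in the KD table, and 1325 and 27.4 in the OE table. The regions between the genes, chr19:5860007-5860213 and chr19:5862460-5863086, had 3.28 and 1.71 CPM per kb, below the median region.

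**Figure D2:**
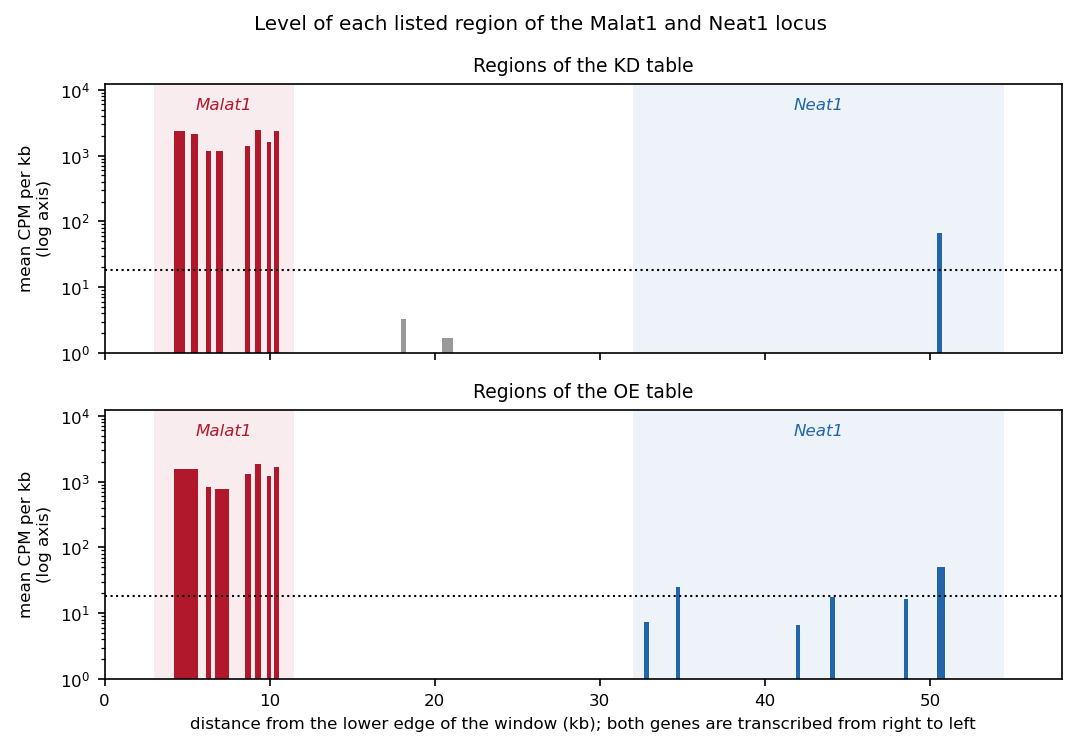
Mean level over 15 libraries in CPM per kb (log axis, which has no zero) of each listed region against the distance in kb from the lower edge of the window. Red bars are *Malat1*, blue bars *Neat1* and grey bars the regions between them; shading marks the approximate gene intervals and the dotted line the median of all regions (18.2 in the KD table, 18.5 in the OE table). Each *Malat1* bar stands at 778 CPM per kb or more, with gaps between the bars, while the tallest *Neat1* bar, at the 5′ side of that gene, reaches 65.8.

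The deposited values at *Malat1* were less often whole numbers than those elsewhere. Of the 120 values of *Malat1* regions in the KD table, 63.3% were not whole, against 4.88% of all values. The share was 37.3% among the 338 nuclear regions outside the locus with totals at least as large as that of the lowest *Malat1* region. For the OE table the share was 81% of 105 values at *Malat1*, 43.3% at the 356 regions of comparable totals and 4.99% over all values. At *Neat1* it was 0% of 15 and 1.11% of 90 values. The sources used here do not state how reads were divided to give such values, and the values were rounded for the tests.

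*Malat1* had lower mean levels in the vector lines than in the hairpin lines. In the KD table the summed CPM of its regions was 4305, 4019 and 5032 in the EV libraries and 4129, 4100 and 5620 in the OE libraries. It was 7598, 6126 and 7444 in Scr, 6189, 6575 and 6895 in KD4, and 5250, 5196 and 6781 in KD6. The means ± SD (n = 3) ran from 4452 ± 522 in EV and 4616 ± 869 in OE through 5742 ± 900.1 in KD6 and 6553 ± 353 in KD4 to 7056 ± 809 in Scr. Each line overlapped the next in this order, so no neighbouring pair was separated beyond its spread. Both vector lines stood below the 3 hairpin lines in mean, although the highest OE library exceeded the 2 lowest KD6 libraries.

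The order was similar in the OE table, where the same libraries were counted over other region boundaries. There *Malat1* had 4365 ± 481 in EV, 4099 ± 722 in OE, 5224 ± 573 in KD6, 6093 ± 488 in Scr and 6096 ± 561 in KD4 (SD, n = 3). The EV libraries ran up to 4665 and the KD6 libraries began at 4762, but the OE library at 4933 again lay inside the KD6 range.

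*Neat1* was highest in Scr in both tables. In the KD table its single region had 15.5, 9.47 and 18 CPM in EV, 13, 11.1 and 18.4 in OE, 19.7, 18.9 and 27.7 in Scr, 17.6, 13.1 and 14.7 in KD4, and 12.3, 16.6 and 22.7 in KD6. The means were 14.3 ± 4.4, 14.2 ± 3.75, 22.1 ± 4.86, 15.1 ± 2.3 and 17.2 ± 5.26 CPM in the same order of lines (SD, n = 3). Scr did not overlap EV, OE or KD4, but it overlapped KD6, and the other 4 lines overlapped one another. In the OE table the summed *Neat1* level was 31.5 ± 7.05 in EV, 30.7 ± 8.55 in OE, 47.4 ± 9.99 in Scr, 35.4 ± 4.58 in KD4 and 36.9 ± 12.3 in KD6.

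**Figure D3:**
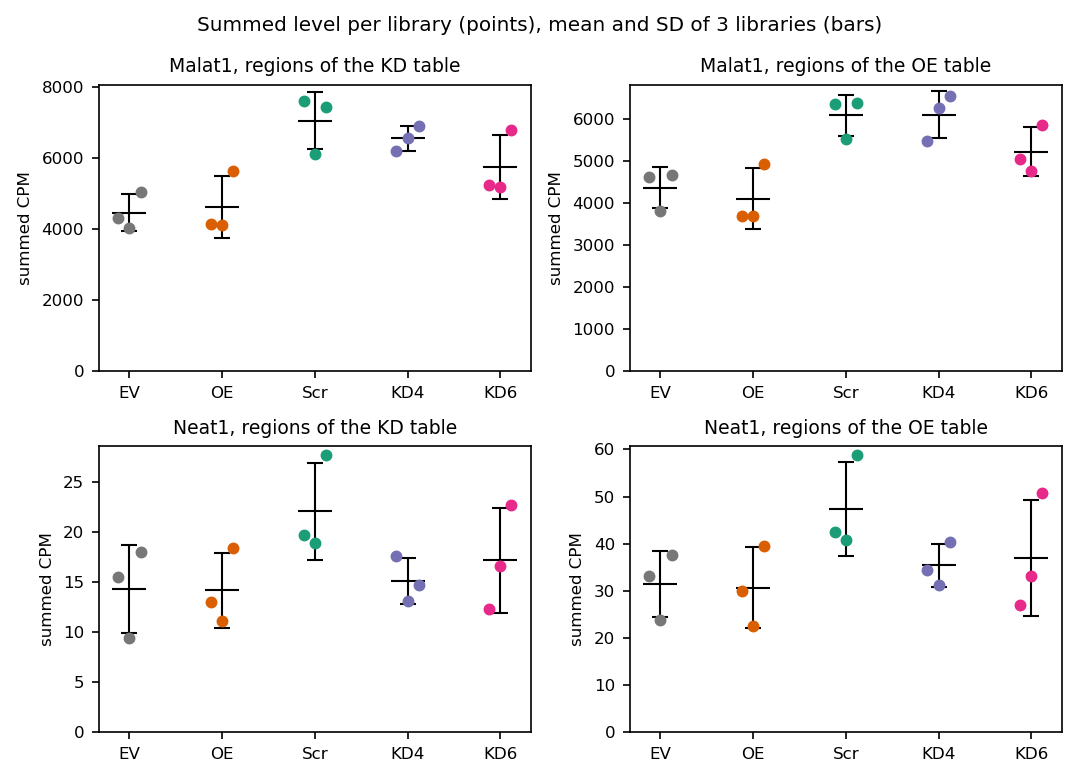
Summed CPM of the *Malat1* regions (top) and the *Neat1* regions (bottom) in each of the 15 libraries, for the KD table (left) and the OE table (right); points are libraries, bars are the mean and SD of 3 libraries, and each vertical axis starts at 0. *Malat1* lies between 4019 and 5620 in EV and OE and between 5196 and 7598 in the hairpin lines of the KD table. *Neat1* is highest in Scr, with wide spread in each line.

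Whether the counts of the locus differed in the knockdown lines was asked by comparing KD4 and KD6, averaged, with Scr. No region of the locus differed past an FDR of 0.05 by edgeR (0 of 11, all of which passed the filter on low counts), and 0.271% of the 44289 regions tested did. DESeq2 also called 0 of the 11. At an unadjusted p under 0.05 edgeR gave 1 of 11, the *Neat1* region, and 3653 of all regions. All 8 *Malat1* regions had log2 fold changes below 0, from -0.33 to -0.06, but they come from the same gene and libraries. Summed over the gene, *Malat1* was 0.87 times the Scr level (95% interval 0.725 to 1.04; log2 fold change -0.2, SE 0.12, edgeR adjusted p = 0.722). The exact permutation test over libraries gave p = 0.143, two-sided, where 0.0238 was the smallest possible.

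At *Neat1* the level in the knockdown lines was 0.728 times that in Scr (95% interval 0.565 to 0.939), a log2 fold change of -0.46 with SE 0.17. With an unadjusted p of 0.0176 and an adjusted p of 0.464 by edgeR, this did not pass the threshold. The exact permutation p was 0.119. Leaving out 1 library moved this log2 fold change between -0.58 and -0.26, the latter without Scr replicate 3 (unadjusted p = 0.19 by edgeR). The regions between the genes summed to 2.28 ± 0.682 CPM in the 6 knockdown libraries and 1.61 ± 0.354 in Scr (SD), with an adjusted p of 0.671 by edgeR. The 167 regions tested within 1000000 bases on either side of the window had a median log2 fold change of 0.02, and 0 of them passed the threshold.

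Each knockdown line alone gave no call at the locus either. KD4 against Scr called 0 of 11 regions, where 0.576% of all regions were called, and KD6 against Scr called 0 of 11, where 0.149% were. DESeq2 called 0 in both, and at an unadjusted p under 0.05 edgeR gave 1 region for KD4 and 3 for KD6. *Malat1* was 0.929 times the Scr level in KD4 (95% interval 0.752 to 1.15) and 0.814 times in KD6 (0.659 to 1.01), with edgeR adjusted p = 0.872 and 0.871. *Neat1* was 0.683 times the Scr level in KD4 (0.506 to 0.922, adjusted p = 0.341) and 0.776 times in KD6 (0.577 to 1.05, adjusted p = 0.917). Without Scr replicate 3 the *Neat1* log2 fold change went from -0.55 to -0.35 in KD4 and from -0.36 to -0.17 in KD6; in KD6 it was -0.17 without KD6 replicate 1 and -0.62 without KD6 replicate 3. The KD4 libraries did not overlap Scr at *Neat1*, and the exact permutation p of 0.1 was the smallest that 3 against 3 libraries allow.

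KD6 and KD4 were then compared with each other. No region of the locus passed the threshold (0 of 11 by edgeR and by DESeq2, and 0 at an unadjusted p under 0.05), against 0.224% of all regions. *Malat1* was 0.876 times as high in KD6 as in KD4 (95% interval 0.709 to 1.08) and *Neat1* 1.14 times (0.842 to 1.53), so differences within those limits were not resolved.

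Between the overexpression line and its control no difference was resolved at the locus. Of the 13 regions of the OE table, 0 passed the threshold between OE and EV, in edgeR, in DESeq2 and at an unadjusted p under 0.05, while edgeR called 0.0106% of all regions. *Malat1* in OE was 0.95 times the EV level (95% interval 0.713 to 1.27, edgeR adjusted p = 0.92), and *Neat1* 0.983 times (0.759 to 1.27, adjusted p = 0.974). The sign of both sums turned without TMM scaling, so no direction is given. The exact permutation p was 0.8 for *Malat1* and 0.9 for *Neat1*, where 0.1 is the smallest possible.

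Single regions of the locus passed the threshold between the control lines, which the labels both call wildtype. The sum of each gene, given below, did not pass it in the main edgeR fit. Of the 11 regions of the KD table, 5 were higher in Scr than in EV at an FDR of 0.05 by edgeR and 0 were lower, and among all 43819 regions tested 2.19% were higher in Scr. All 5 were *Malat1* regions, which come from the same gene and libraries and are not separate evidence. Each control was a single line, so the kind of control and the line cannot be told apart. Of the 13 regions of the OE table, 2 were higher, 1 in each gene, and 2.41% of all regions were. These shares cover regions of every level, and none was computed among regions with counts as high as those of *Malat1*. The median log2 fold change over the members was 0.7 in the KD table, 0.53 in the OE table, and over all regions it was 0.02 in each. DESeq2 called 7 and 5 members.

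The *Malat1* region with the smallest p was chr19:5848750-5849169, in the middle of the gene. It had 309, 307 and 386 CPM in the EV libraries and 633, 517 and 744 in the Scr libraries, with no overlap. The log2 fold change was 0.93 (SE 0.17, edgeR adjusted p = 0.00613). In the other lines this region had 358, 353 and 524 CPM in OE, 581, 540.2 and 541 in KD4 and 426, 492 and 611 in KD6, so that the highest OE library lay inside the Scr range.

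The other called *Malat1* regions of the KD table were chr19:5848154-5848433, chr19:5850529-5850816, chr19:5847217-5847650 and chr19:5846198-5846854. At chr19:5848154-5848433 the CPM was 228, 226 and 291 in EV and 419, 356 and 464 in Scr. At chr19:5850529-5850816 it was 261, 276 and 363 in EV and 505, 437 and 622 in Scr, without overlap in either region. Their log2 fold changes were 0.75 and 0.81, with edgeR adjusted p = 0.0172 and 0.0166. The region chr19:5847217-5847650 had a log2 fold change of 0.74 (adjusted p = 0.0305), and chr19:5846198-5846854, the region with the most counts, one of 0.63 (adjusted p = 0.0491). At the latter the EV libraries had 1183, 1089 and 1384 CPM and the Scr libraries 1856, 1673 and 2082.

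The 3 *Malat1* regions on the 5′ side had log2 fold changes of 0.48 to 0.7 and did not pass the threshold. The region nearest the 5′ end, chr19:5852266-5852582, had 632, 524 and 682 CPM in EV and 1375, 711 and 867 in Scr. Its first Scr library stood far above the other two, and the adjusted p was 0.0578 by edgeR. In the other lines it had 560.3, 543 and 821 CPM in OE, 881, 779 and 856 in KD4 and 655, 620.4 and 914 in KD6.

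In the OE table the called *Malat1* region was chr19:5850525-5850846, with 304, 298 and 383 CPM in EV and 495, 453 and 624 in Scr. Its log2 fold change was 0.67 (SE 0.19, edgeR adjusted p = 0.0449). The called *Neat1* region, chr19:5886011-5886188, lies in the gene body and was a weak one, with 1.44, 1.89 and 2.65 CPM in EV and 4.33, 3.78 and 6.17 in Scr. There the log2 fold change was 1.24 (SE 0.25, edgeR adjusted p = 0.0124). Its OE libraries reached 2.31, 2.18 and 4.27 CPM, so that the highest of them fell inside the Scr range. At the *Neat1* region nearest the 5′ end of the gene, chr19:5892458-5892931, the level was 23.9, 14.9 and 25.7 CPM in EV and 25.6, 28.2 and 37 in Scr; these overlapped, and the log2 fold change of 0.49 had an adjusted p of 0.107 by edgeR.

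Summed per gene, *Malat1* was 1.6 times as high in Scr as in EV in the KD table (95% interval 1.19 to 2.14, edgeR adjusted p = 0.0577) and 1.39 times by the regions of the OE table (0.978 to 1.97, adjusted p = 0.216). *Neat1* was 1.56 times as high (1.17 to 2.08, adjusted p = 0.0685) and 1.49 times (1.16 to 1.93, adjusted p = 0.0561). None of these sums passed the threshold in the main edgeR fit, while DESeq2 placed both *Malat1* sums past it. With a replicate block, edgeR placed both sums of the KD table past it (adjusted p = 0.0234 for *Malat1* and 0.0281 for *Neat1*). The other settings are given at the end. In all 4 sums the libraries of Scr and EV did not overlap, and the exact permutation p of 0.1 is the least that 3 against 3 can give. Among the called regions of the neighbourhood, more were lower in Scr than higher. Of the 167 flanking regions tested in the KD table, 2 were higher in Scr and 6 lower, with a median log2 fold change of -0.07. Over all 43819 regions tested there, 958 were higher and 963 lower. Of the 144 flanking regions in the OE table, 2 were higher and 9 lower, with a median of -0.18. Over all 37671 regions tested there, 908 were higher and 1105 lower.

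The fold changes of the called regions kept their direction whichever library was left out, but the number of calls did not hold. At chr19:5848750-5849169 the log2 fold change ranged from 0.8 to 1.04 and the call was lost only without EV replicate 2 (edgeR adjusted p = 0.0551). At chr19:5886011-5886188 it ranged from 1.03 to 1.5, and the call was lost without EV replicate 1 (0.0517) and without Scr replicate 3 (0.0794). The 5 called members of the KD table became 0 without EV replicate 2, 1 without Scr replicate 1 or Scr replicate 3, and 3 without EV replicate 1, and 6 without EV replicate 3 or Scr replicate 2. The 2 of the OE table became 0 without EV replicate 1 or Scr replicate 3, 1 without EV replicate 2 or Scr replicate 1, and 5 without Scr replicate 2. Without TMM scaling the calls over the whole table went from 958 higher and 963 lower in Scr to 1076 and 436 in the KD table, and from 908 and 1105 to 1560 and 462 in the OE table, with the median of all regions at 0.12 and 0.13. On that scale 8 and 4 members were called higher in Scr and 0 lower.

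**Figure D4:**
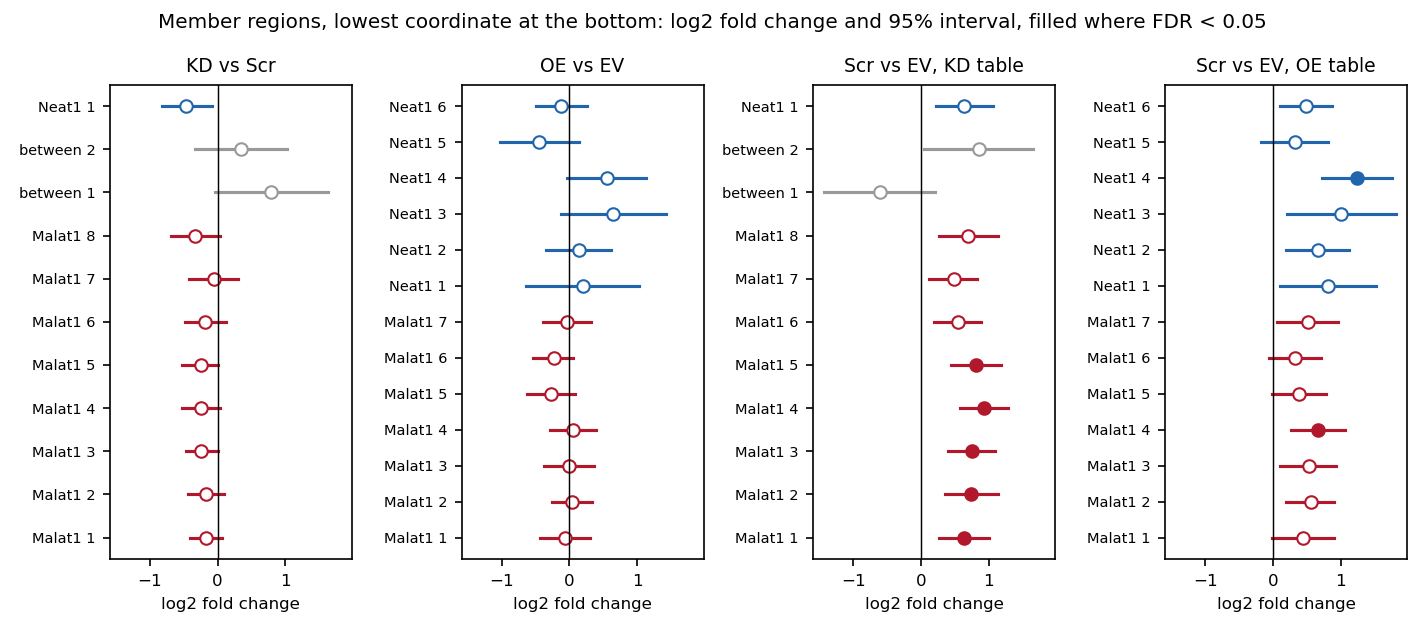
Log2 fold change (points) with 95% interval (lines) of each region of the locus in 4 comparisons, ordered by position with the lowest coordinate at the bottom; red is *Malat1*, blue *Neat1*, grey between the genes, and filled points passed an FDR of 0.05 by edgeR. No point is filled for KD vs Scr or OE vs EV, 5 *Malat1* points are filled for Scr vs EV in the KD table, and 1 point of each gene in the OE table.

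Because the mean *Malat1* levels above were higher in each hairpin line than in the vector lines, Scr, KD4 and KD6 were averaged. Their mean was set against the mean of EV and OE, although single libraries of the 2 sets overlapped. This comparison was chosen after those levels were seen and uses the same libraries, so it adds no independent evidence. By edgeR, 9 of the 11 regions of the KD table were higher in the hairpin lines, all 8 of *Malat1* and chr19:5862460-5863086 between the genes, where 5.38% of all 44444 regions were higher. Of the 13 regions of the OE table, 6 were higher, all of them among the 7 *Malat1* regions, where 3.43% of all regions were. Again no share was computed among regions with counts as high as those of *Malat1*. *Malat1* was 1.42 times as high in the hairpin lines in the KD table (95% interval 1.22 to 1.65, edgeR adjusted p = 0.00428) and 1.37 times in the OE table (1.16 to 1.61, adjusted p = 0.0202). The 3 libraries of a line share that line, so over 3 hairpin and 2 vector lines these p-values are too small as a test of the kind of construct.

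*Neat1* in the same comparison was 1.26 times as high in the KD table (95% interval 1.02 to 1.56, edgeR adjusted p = 0.155) and 1.27 times in the OE table (1.04 to 1.56, adjusted p = 0.141), and 0 of its regions passed the threshold in either table. At an unadjusted p under 0.05 edgeR gave 10 of the 11 members in the KD table and 10 of the 13 in the OE table. At chr19:5862460-5863086, a region of 9 to 42 counts per library, the log2 fold change was 0.96 (SE 0.26, edgeR adjusted p = 0.0211). The *Malat1* sum of the OE table lost its call without EV replicate 2 (adjusted p = 0.0664), without OE replicate 1 (0.0747) and without OE replicate 2 (0.0801). The construct, any drug used for selection and the handling of the vector and hairpin lines cannot be told apart here. The flanking regions had median log2 fold changes of -0.05 and -0.08. By edgeR, 1 of the 169 in the KD table was higher in the hairpin lines and 18 were lower. Over all 44444 regions tested there, 2392 were higher and 2333 lower. Of the 144 in the OE table, 2 were higher and 9 lower. Over all 37967 regions tested there, 1304 were higher and 1408 lower.

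Taken over all lines, libraries above their group mean at *Malat1* tended to be above it at *Neat1*, but not in every line. In the KD table KD4 replicate 1 was the lowest of its line at *Malat1* and the highest at *Neat1* (deviations -0.081 and 0.2174). Scr replicate 1 was the highest of its line at *Malat1* and below its group mean at *Neat1* (0.1134 and -0.1378). Over the 15 libraries, the deviations of log2(CPM + 1) from the mean of each group had Pearson's r = 0.73 (exact permutation p = 0.0239 within groups, adjusted 0.0239) and Spearman's rho = 0.74 (exact permutation p = 0.0188, adjusted 0.0188) in the KD table. In the OE table r was 0.78 (exact permutation p = 0.0118, adjusted 0.0236) and rho 0.77 (exact permutation p = 0.00682, adjusted 0.0136). The p-values were adjusted over these 2 relations, which share their libraries. Leaving out the 2 libraries farthest from the median at *Malat1* gave r = 0.59 and 0.69.

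Much of this relation went with the replicate number. The library numbered 3 had the highest *Malat1* level in 4 of 5 groups in the KD table and 5 of 5 in the OE table. The same counts held for *Neat1*, but the exception in the KD table was Scr at *Malat1* and KD4 at *Neat1*. The library numbered 3 had the largest total count in 0 of 5 groups in the KD table and 1 of 5 in the OE table. Once the mean of each number was also removed, r was 0.28 and 0.29 (rho 0.4 and 0.26), and these weaker values were not tested. What the libraries of a number share was not tested.

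**Figure D5:**
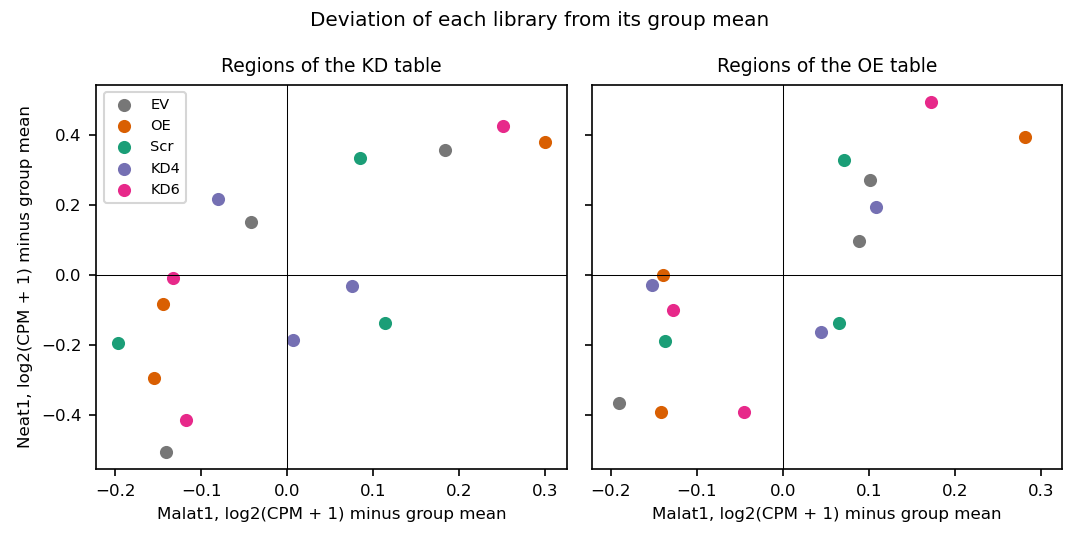
Deviation of each library from its group mean in log2(CPM + 1), *Neat1* against *Malat1*, for the KD table (left) and the OE table (right), with colors for the 5 lines. Pearson's r is 0.73 (left) and 0.78 (right); the points at the upper right are mostly libraries numbered 3.

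The regions of a gene also moved together between libraries. The 28 pairs of *Malat1* regions in the KD table had correlations of these deviations between 0.27 and 0.97, with a median of 0.68, and the 21 pairs in the OE table between 0.22 and 0.95, with a median of 0.65. The 15 pairs of *Neat1* regions in the OE table lay between 0.62 and 0.88, with a median of 0.82. Regions of 1 gene share their libraries and lie side by side, so these values are descriptions.

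Regions elsewhere in the genome were ranked by how closely their levels followed the summed genes over the 15 libraries, by Pearson's r of log2(CPM + 1). The window and 1000000 bases on either side were left out, and only regions with at least 5 CPM were ranked. For *Malat1* in the KD table they were chr13:8003162-8003419 (r = 0.96), chr14:3458274-3458470 (0.95), chr9:13290621-13291286 (0.94), chr8:105731876-105732175 (0.93) and chr11:50215543-50215835 (0.93). The regions on chromosomes 14 and 9 came back in the OE table, as chr14:3458282-3458464 (r = 0.94) and chr9:13290606-13291197 (0.91). For *Neat1* the closest in the KD table was chr1:88201069-88201754 (r = 0.96), and regions near chr17:27116370-27116702 (0.92) and chr9:72572876-72573272 (0.91) were among the first 5 in both tables. They were picked as the closest of the whole table, and the libraries share the split between vector and hairpin lines.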

How the data were processed

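The 15 monolayer 6DT1 libraries are described by the study as ATAC-seq. According to the methods, the authors used Bowtie2 on mm39, then MACS for peaks, within Partek Flow. The submitters' processing notes instead list STAR 2.7.8a. In addition, RNA extraction is what the labels describe. Which aligner was used, and whether all counted reads are from ATAC-seq, is uncertain. The deposited values are expected counts of reads in each region without normalization. Of them 95.1% (KD table) and 95% (OE table) were whole, and all were rounded here, where whole counts had been planned for. A further 15 columns per table match none of the samples and were left out.

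Whole tables were fitted with edgeR 4.0.16 in R 4.3.3 (quasi-likelihood test, TMM, the tool's filter on low counts, Benjamini-Hochberg FDR of 0.05), with only the groups compared: Scr, KD4 and KD6 in 1 fit, OE and EV, and Scr and EV in each table; hairpin against vector lines used all 15. For sums, the members were replaced by 1 row per gene in the same fit. Exact two-sided permutation tests over libraries used scipy 1.17.1, and the procedure was tested on simulated data. Precision is limited by 3 libraries per group. Members, lists and tests were chosen with earlier results of these data known. The regions named with values were, per gene, the one with the most CPM, the one nearest the 5′ end, and those past the FDR threshold in a planned comparison, up to 6. The alternatives were other scalings, DESeq2 1.42.0, other filters, all libraries in 1 fit, the other table's regions, a replicate block, assignment by any overlap and each library left out. Paraspeckle and speckle protein genes were not analysed, since no annotation of mm39 was used here.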

Additional observations from a re-analysis of the deposited data

How the results depend on the processing

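Of 344 summed log2 fold changes recomputed under an alternative, 316 kept their direction and their side of the threshold, and 152 of 172 recomputed counts of members called stayed within 1.5 times. For KD vs Scr, KD4 vs Scr, KD6 vs Scr, KD6 vs KD4 and OE vs EV, the count of members called was 0 under every alternative run. Signs turned for the *Malat1* log2 fold change of KD4 vs Scr over the other table's regions (0), of OE vs EV without TMM (0.03) and over the other table's regions (0.06), and for *Neat1* in OE vs EV without TMM (0.08) and with upper quartile factors (0.04). Leaving out 1 library gave ranges of -0.07 to 0.38 for *Neat1* in KD6 vs KD4 and -0.25 to 0.15 in OE vs EV. In Scr vs EV over the KD table, members called were 8 without TMM, 8 with the replicate block and 2 over the other table's regions (0 to 6 with 1 library left out). *Malat1* passed the threshold there without TMM (0.77), with upper quartile factors (0.73), with DESeq2 (0.66), with the replicate block (0.68) and with all 15 libraries in 1 fit (0.66), and ranged from 0.6 to 0.76 with 1 library left out; *Neat1* passed with the block (0.66; 0.41 to 0.82 with 1 library left out). Over the OE table, members called were 4 without TMM, 4 with upper quartile factors, 5 with DESeq2, 6 with the block and 5 over the other table's regions (0 to 5 with 1 library left out). *Malat1* passed with DESeq2 (0.47), and *Neat1* without TMM (0.69), with upper quartile factors (0.71) and with the block (0.59; 0.41 to 0.72 with 1 library left out). For hairpin against vector lines over the OE table, *Neat1* passed with the replicate block (0.35), members called ranged from 2 to 8 and the *Malat1* sum from 0.41 to 0.53 with 1 library left out. The cause of these changes was not tested. In 19 of 20 pairs of groups, not all 3 replicate numbers correlated above 0.1, so the numbers were not taken to pair the samples. A pair fails this check when 1 number falls short. Libraries numbered 3 correlated at 0.22 to 0.48 between EV, OE, Scr and KD6 over both tables, and at -0.33 to -0.1 with KD4. What those libraries share was not tested, and the block changed no other call named here. Counts over all regions moved by more than 1.5 times in KD vs Scr, from 120 to 277 with DESeq2, 244 with all libraries in 1 fit and 62 over the other table's regions. They went from 255 to 482, 494 and 111 in KD4 vs Scr, from 66 to 156, 117 and 6 in KD6 vs Scr, and from 99 to 251 and 228 with the first 2 settings in KD6 vs KD4. In OE vs EV the 4 became 0 over the other table's regions, and in Scr vs EV over the OE table the 2013 became 1248 with the filter of at least 50 counts and 4451 with the replicate block. With 1 library left out these counts ranged from 8 to 170 in KD vs Scr, 44 to 314 in KD4 vs Scr, 7 to 79 in KD6 vs Scr, 17 to 101 in KD6 vs KD4 and 1 to 4 in OE vs EV. In Scr vs EV they ranged from 366 to 2852 over the KD table and 174 to 4028 over the OE table, so the background shares printed beside the members move with single libraries too. At *Neat1* and between the genes, low counts limit what can be resolved.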
